A study of Mus musculus with 3 samples.

Results

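Kcnj10, Aqp4, Dag1 and Atp1b2, 4 of the 18545 genes measured in dissociated mouse retina, were followed across cell clusters and libraries, with Müller glia (MG, cluster 0) set against astrocytes (cluster 12). They were chosen as a named set for potassium and water handling by glia. Retinal cells were profiled by droplet single-cell RNA sequencing, which counts each captured messenger RNA once through a unique molecular identifier (UMI). There were 3 groups of C57BL/6J mice aged 8 weeks, with 1 pooled library per group. The WT group carried the wildtype genotype and received base chow, and its pool held 2 female and 2 male mice. The rd10-vehicle group received the same chow, carried the Rd10 genotype (a degeneration model with a mutation in the rod phosphodiesterase gene Pde6b) and was female. The rd10-TMB group was also female and Rd10, with tamsulosin, metoprolol and bromocriptine (TMB) in the chow. All mice were reared in the dark, which slows the degeneration. The labels give 1 retina from each of 4 mice per pool, while the study's text gives fewer rd10 mice, and cells could not be assigned to mice. With 1 library per group no difference between groups could be tested, and the spread between animals is unknown.

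MG span the retina from the photoreceptors to the inner surface and clear the potassium that active neurons release. Kcnj10 encodes Kir4.1, the inwardly rectifying channel through which MG take up and release potassium, and Aqp4 encodes aquaporin-4, the water channel that sits beside it in the endfeet at vessels and the vitreous border. Dag1 encodes dystroglycan, the receptor that links laminin, agrin and perlecan outside the cell to dystrophin and the syntrophins inside it, and this complex anchors both channels in the endfoot. Atp1b2 encodes the beta-2 subunit of the sodium-potassium pump (Na,K-ATPase), first known as an adhesion molecule on glia.

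The 3 libraries held 4478 WT, 5952 rd10-vehicle and 4812 rd10-TMB cells with 18882951, 37002532 and 29192530 UMIs. Of 15217 distinct cell barcodes, 25 occurred in more than 1 library. Cluster 0 held 530, 2492 and 1748 cells in the order WT, rd10-vehicle and rd10-TMB, and 12 of 12 MG markers (among them Rlbp1, Glul and Sox9) were higher there than in the other cells. Cluster 12 was smaller, with 20, 88 and 33 cells, and was named from 7 of 9 astrocyte markers, among them Pax2, Gfap, S100b and Pdgfra, while Agt and Aldh1l1 were no higher there than in MG. Pax2 had no UMI in cluster 0 in any library. Both names rest on these markers and mean MG-like and astrocyte-like. Levels are given in CPM, a gene's UMIs scaled to a total of 1000000 UMIs over the summed cells of a cluster and library. Markers of pericytes, summed over 7 genes, reached 1052, 1836 and 1642 CPM in cluster 12, and their part in the astrocyte values was not tested. Intervals are exact at 95% and cover counting error only.

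The bases just upstream of the RefSeq gene start are shown for Kcnj10 and Dag1, whose levels differed in opposite directions between the glia. The RefSeq promoter table (GRCm38.p6) was matched by symbol for these 2 of the 4 members. The 250 Kcnj10 bases are chr1:172340960-172341209 (plus strand) and the 231 Dag1 bases chr9:108263978-108264208 (minus strand), each given 5′ to 3′ with matches in capitals.
Kcnj10: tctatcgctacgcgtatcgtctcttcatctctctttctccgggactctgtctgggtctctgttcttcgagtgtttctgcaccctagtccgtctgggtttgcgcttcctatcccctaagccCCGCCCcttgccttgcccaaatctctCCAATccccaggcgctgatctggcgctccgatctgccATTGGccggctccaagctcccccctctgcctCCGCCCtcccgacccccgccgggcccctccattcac
Dag1: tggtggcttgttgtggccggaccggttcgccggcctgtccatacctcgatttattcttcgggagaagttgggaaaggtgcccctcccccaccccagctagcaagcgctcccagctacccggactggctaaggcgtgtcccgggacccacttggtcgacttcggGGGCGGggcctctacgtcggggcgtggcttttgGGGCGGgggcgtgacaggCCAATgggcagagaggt
The letters searched on both strands were GGGCGG for the GC box and, for the CCAAT box, its own 5 letters. The TATA box was searched as TATAAA. The core bound by SOX factors was searched as ACAAAG. No matches overlapped. Kcnj10 held 2 GC boxes and 2 CCAAT boxes, and Dag1 held 2 GC boxes and 1 CCAAT box. Neither TATAAA nor ACAAAG was found in either stretch. Among 32851 promoters in the table, 32.7% held a GC box, 33.8% a CCAAT box, 12.4% a TATA box and 16.5% the SOX core in the 250 bases before the start. These are matches of letters and say nothing of binding.

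Kcnj10 (chr1:172341210-172374085, plus strand, GENCODE annotation of mm10) was found almost wholly in MG. Its level in MG was 238 CPM in WT (95% interval 222 to 255), with 179 (174 to 185) in rd10-vehicle and 186 (180 to 193) in rd10-TMB. In astrocytes it was 21.6, 27.7 and 14.2 CPM in the same order, from 7, 39 and 8 UMIs. Every MG value lay above every astrocyte value. The MG to astrocyte ratio was 3.27 on the log2 scale (2.41 to 4.78) in WT, 2.66 (2.24 to 3.19) in rd10-vehicle and 3.54 (2.73 to 4.92) in rd10-TMB. The median of the 3 was 3.27. It was 1.72 with every cell thinned to 1000 UMIs, which left 1, 4 and 0 astrocyte UMIs. In the 1, 11 and 5 astrocytes without an Rlbp1 UMI it was 1.33. With so few astrocyte UMIs or cells, both values depend on the 1 UMI added per sum. Because the clusters were made from the expression of these same cells, differences between clusters are descriptions and were not tested. Whether the members were among the variable genes used for clustering is not known. Outside these clusters the highest Kcnj10 value in any library was 13.2 CPM, among the 14 clusters with at least 20 cells in each library. Of the Kcnj10 UMIs of the WT, rd10-vehicle and rd10-TMB libraries, 97.3%, 98.2% and 98.7% were in MG, which made up 11.8%, 41.9% and 36.3% of the cells and 17.6%, 60.0% and 57.5% of all UMIs. Below astrocytes the library ranges of neighbouring clusters in the order overlapped, down to 0 UMIs in cluster 10.

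Aqp4, at chr18:15389496-15410982 on the minus strand, was set apart further. MG held 1333 CPM (1294 to 1373) in WT, 1287 (1272 to 1302) in rd10-vehicle and 1193 (1177 to 1210) in rd10-TMB. MG accounted for 98.2%, 98.9% and 99.2% of Aqp4 UMIs. Astrocytes held 0 WT UMIs, 68 rd10-vehicle UMIs (48.3 CPM) and 4 rd10-TMB UMIs (7.10 CPM). The count of 0 in WT came from 324049 UMIs of 20 cells and allows a level of up to 9.26 CPM, so that Aqp4 was at least 144-fold higher in WT MG than in WT astrocytes. The log2 ratio of MG to astrocytes was 4.71 (4.39 to 5.10) in rd10-vehicle and 7.07 (6.04 to 9.27) in rd10-TMB. The median of 7.07 became 5.29 after the same thinning, which left an Aqp4 UMI in 0, 2 and 0 astrocytes. It was 3.69 in the 1, 11 and 5 astrocytes without Rlbp1. With so few astrocyte UMIs or cells, both values depend on the 1 UMI added per sum. Rods, which should lack the gene, read 6.12, 10.5 and 7.91 CPM, so the WT and rd10-TMB astrocyte values were at the level of background.

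The rd10-vehicle astrocyte value came from few cells. Of its 68 Aqp4 UMIs, 63 lay in the 4 of 88 cells that held 3 or more Aqp4 UMIs. Those 4 cells, picked by Aqp4 itself, had a median of 22328 UMIs, against 13199.5 in the other 84, and they also carried genes of MG. Dapl1 read 345 CPM in the 4 cells and 12.3 in the other 84, and Car14 read 318 and 23.1 CPM. Kcnj10 read 118 CPM in the 4 cells and 20.04 in the rest. The astrocyte marker Pax2 read 45.4 CPM in the 4 cells, from 5 UMIs, and 134 in the rest. Gfap read 4518 and 5202 CPM, while S100b was no lower in the 4 cells, at 1978 and 1940 CPM. The part of mixed droplets in these 4 cells was not tested. Over all cells of cluster 12, the Aqp4 level was 0%, 3.76% and 0.595% of that in MG. The MG genes differed widely in cluster 12. Dapl1, Crym, Car2 and Car14 lay between 1.04% and 8.16% of their MG level and Rlbp1 at 27.5%, 16.2% and 11.9%, while Sox9 read 898, 625 and 611 CPM in cluster 12 against 497.0, 534 and 507 in MG, and Vim 1805, 3209 and 2503 CPM against 923, 1202 and 1083. The 12 MG markers summed to 24848, 28539 and 26975 CPM in cluster 12, against 44262, 50054 and 49286 CPM in MG.

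Dag1, at chr9:108204634-108263958 on the minus strand, ran the other way. In MG its level was 109 CPM (98.1 to 121) in WT, 101 (96.5 to 105) in rd10-vehicle and 90.8 (86.3 to 95.5) in rd10-TMB. In astrocytes it was 201 CPM (155 to 256), 159 (139 to 181) and 204 (169 to 245). All 3 astrocyte values lay above all 3 MG values. The MG to astrocyte log2 ratio was -0.90 (-1.26 to -0.48) in WT, -0.67 (-0.86 to -0.46) in rd10-vehicle and -1.18 (-1.44 to -0.88) in rd10-TMB. Dag1 was highest in pericytes, at 205 to 393 CPM over the libraries, and endothelial cells followed astrocytes at 133 to 157 CPM. The library ranges of these 4 clusters did not overlap from each to the next, with MG lowest of the 4. Pericytes were few, at 20, 25 and 22 cells. Their lowest value (205 CPM) lay just above the highest of astrocytes (204 CPM), so the order of these 2 is not firm. The other clusters read between 12.8 and 39.7 CPM, with rods lowest. High Dag1 was thus shared by vessel cells and both glia. Cluster 12 carried pericyte markers at the summed levels given above, 1052 to 1836 CPM against 57.4 to 61.4 CPM in MG, and their part in its Dag1 level was not tested.

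Atp1b2, at chr11:69599736-69605942 on the minus strand, was not restricted to glia. MG held 378 CPM (357 to 400) in WT, 495 (486 to 504) in rd10-vehicle and 435 (425 to 445) in rd10-TMB. Astrocytes held 299 (243 to 365), 397 (365 to 432) and 305 CPM (261 to 355). In each library MG lay above astrocytes, by 0.32 (0.04 to 0.65), 0.31 (0.19 to 0.44) and 0.50 (0.29 to 0.74) on the log2 scale, although the library ranges of the clusters overlapped. Cones were highest at 1054 to 1183 CPM, and their range did not overlap with that of any other cluster. The unnamed cluster 7 followed at 723 to 749 CPM, then OFF cone bipolar cells (cluster 8) at 687 to 717 CPM. Rods read 400 to 454 CPM, in the same range as MG. MG ranked 7 of 14 clusters and endothelial cells came last, at 170 to 260 CPM. The name of the gene set as glial thus did not hold for Atp1b2 in these cells.

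**Figure D1:**
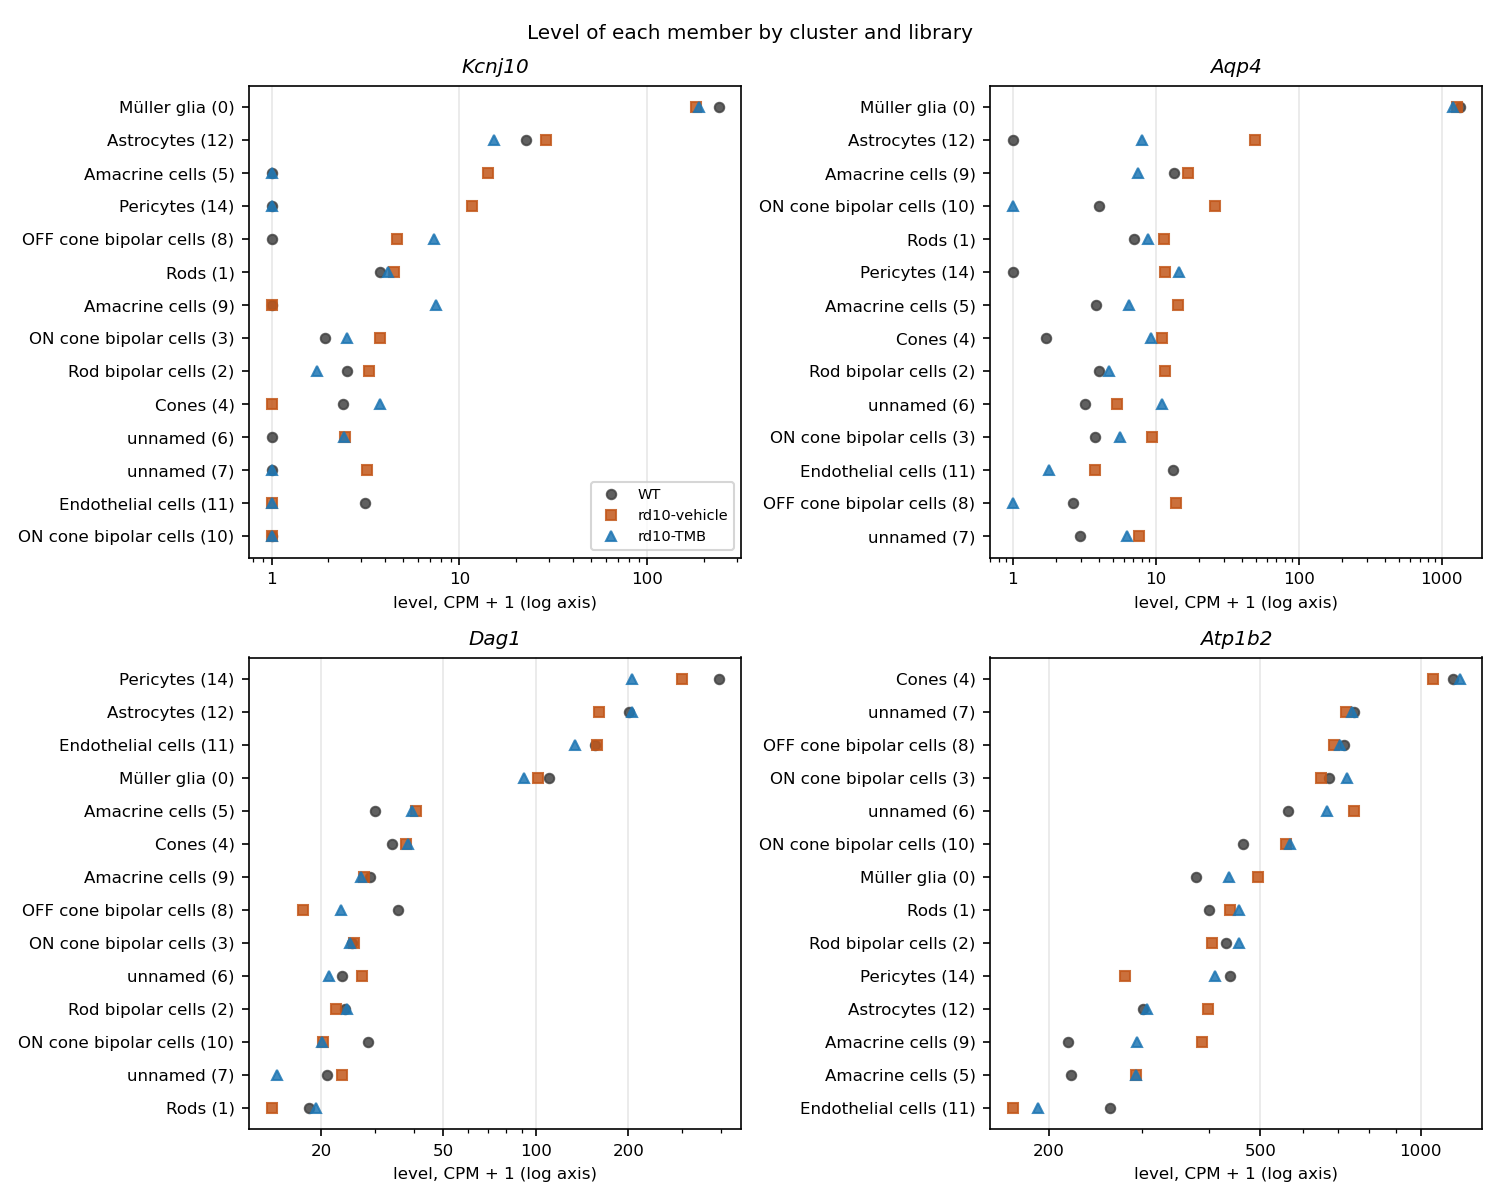
Level of each member (CPM + 1, log axis) in the 14 clusters with at least 20 cells per library, with cluster numbers in brackets and clusters ordered by their mean. Each point is 1 library. Kcnj10 and Aqp4 stand apart in Müller glia, Dag1 is highest in pericytes, and Atp1b2 is highest in cones at 1054 to 1183 CPM.

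Among 7912 genes with at least 50 UMIs in MG and astrocytes together in each library, 14.0% were at least 1.5-fold higher in MG in all 3 libraries and 7.07% at least 1.5-fold lower. Kcnj10 and Aqp4 were in the first set and Dag1 was in the second, with Atp1b2 in neither. In rd10-vehicle, 99.8% of genes had a lower MG to astrocyte ratio than Aqp4, 96.5% a lower one than Kcnj10, 61.1% a lower one than Atp1b2 and 12.7% a lower one than Dag1.

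**Figure D2:**
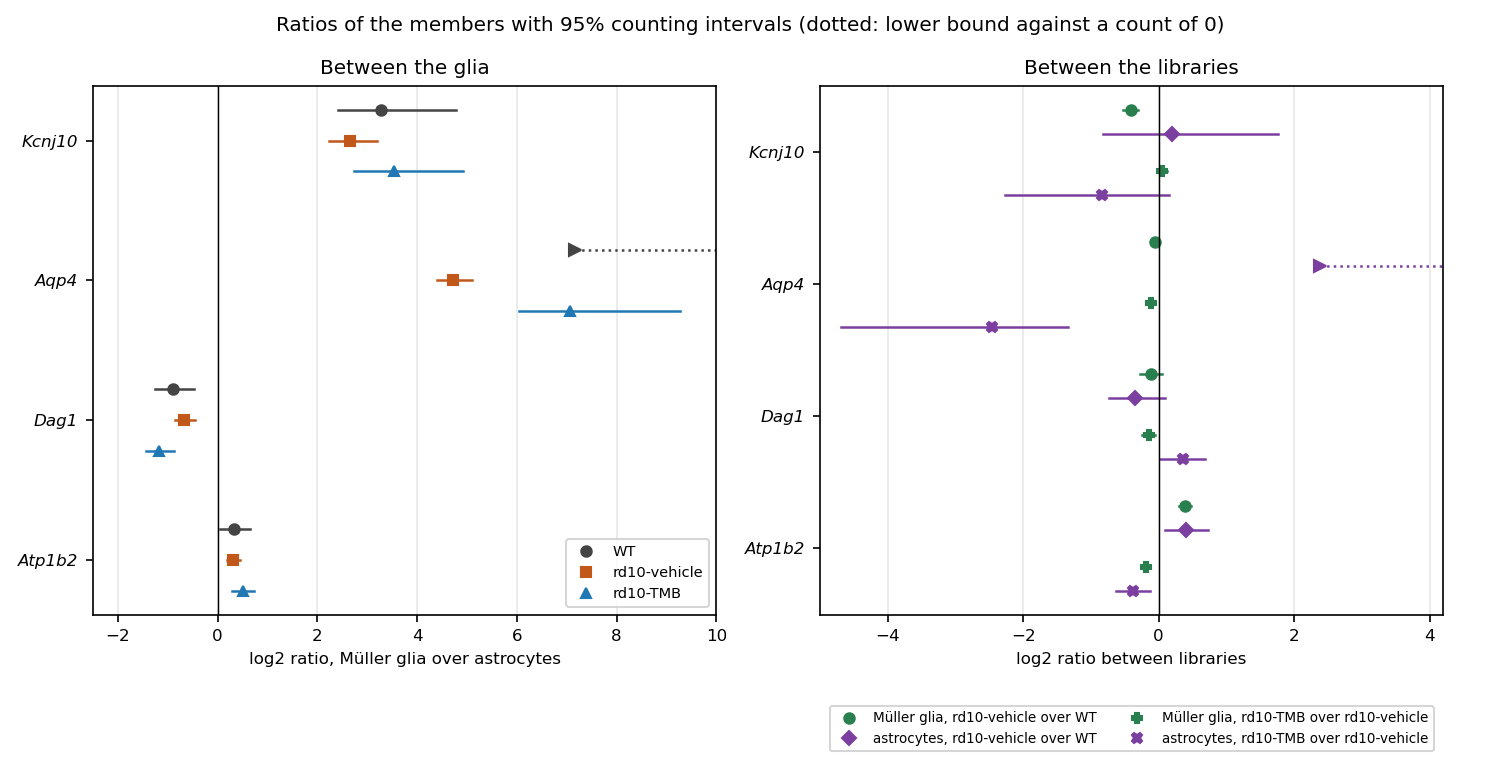
Log2 ratios of the members with 95% counting intervals, between Müller glia and astrocytes in each library (left) and between libraries in each glial cluster (right). Triangles with dotted lines are lower bounds against a count of 0, at 7.17 and 2.38 for Aqp4. Between libraries the Müller glial values lie between -0.41 and 0.39, and the Aqp4 values in astrocytes lie far from 0.

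Between the rd10-vehicle and WT libraries, MG differed most in Kcnj10 and Atp1b2, and in opposite directions. Kcnj10 was lower in rd10-vehicle by a log2 ratio of -0.41 (-0.52 to -0.30), from 238 to 179 CPM. Atp1b2 was higher by 0.39 (0.30 to 0.47), from 378 to 495 CPM. Other markers moved between the same MG. Summed reactive MG markers (8 genes) read 280, 2452 and 1613 CPM in the order WT, rd10-vehicle and rd10-TMB, cone markers 94.3, 202 and 251 CPM, and rod markers 869, 1171 and 1272 CPM. Atp1b2 was highest in cones, at a mean of 1129 CPM, and Kcnj10 read 0 to 2.76 CPM there. The part of these markers in the member values was not tested. Aqp4 differed by -0.05 (-0.10 to -0.01), which was 0.0013 as a mean over cells, and Dag1 by -0.12 (-0.28 to 0.05). No member reached a 1.5-fold difference, which 8.64% of 12404 genes exceeded upward and 9.31% downward. Of those genes 16.6% had a lower ratio than Kcnj10 and 86.4% a lower ratio than Atp1b2, so both lay inside the common range of this comparison. When WT cells were limited to those with an Xist UMI and no UMI of 4 Y-linked genes, Kcnj10 stood at -0.46, Atp1b2 at 0.25, Aqp4 at -0.18 and Dag1 at -0.13. The WT pool held both sexes and the rd10 pools females only, so that sex and genotype cannot be told apart beyond this.

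Between rd10-TMB and rd10-vehicle no MG difference exceeded 0.19 in size on the log2 scale, as summed over all cells. Kcnj10 stood at 0.05 (-0.01 to 0.12) and, with cells thinned to equal UMIs, at -0.12, so that it had no steady direction. Aqp4 stood at -0.11 (-0.13 to -0.08), Dag1 at -0.15 (-0.24 to -0.05) and Atp1b2 at -0.19 (-0.23 to -0.14). Atp1b2 in rd10-TMB lay between the other libraries, and Kcnj10 lay near rd10-vehicle and below WT, by -0.36 (-0.47 to -0.24). Again no member reached 1.5-fold, in a comparison where 1.10% of 13021 genes did so upward and 2.20% downward. Both comparisons share the rd10-vehicle library, and their values are not independent of each other.

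In astrocytes Atp1b2 stood at 0.40 (0.09 to 0.73) for rd10-vehicle over WT, where MG gave 0.39, and at -0.37 (-0.63 to -0.13) for rd10-TMB over rd10-vehicle, where MG gave -0.19 (-0.23 to -0.14). Dag1 stood at -0.35 (-0.74 to 0.09) and 0.37 (0.02 to 0.69). Kcnj10 had too few UMIs, with intervals of -0.82 to 1.77 and -2.27 to 0.15. Aqp4 was the 1 member past 1.5-fold. With the WT count of 0 set at 3 counts it was 5.22-fold higher in rd10-vehicle than in WT. The exact interval of that log2 ratio began at 2.05. Aqp4 was then lower in rd10-TMB, at a log2 ratio of -2.47 (-4.68 to -1.34). Both comparisons rest on the 4 cells described above. Upward differences of 1.5-fold were seen in 7.93% of 4769 genes for rd10-vehicle over WT and in 4.21% of 5111 genes for rd10-TMB over rd10-vehicle, and downward ones in 13.9% and 6.91%. Summed reactive markers in cluster 12 read 4490, 8415 and 6570 CPM in the order WT, rd10-vehicle and rd10-TMB. Rod markers there read 275, 132 and 593 CPM. The part of both in the astrocyte values was not tested.

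Cell by cell, Aqp4 was near universal in MG. An Aqp4 UMI was found in 94.5% of WT, 97.1% of rd10-vehicle and 95.9% of rd10-TMB MG, at a median depth of 6300, 8593.5 and 9454.5 UMIs, against 0.763%, 1.62% and 1.34% of rods at 1423, 1406 and 1536 UMIs. With every cell thinned to 1000 UMIs, which kept 527, 2476 and 1727 MG, the shares were 70.8% (66.7 to 74.6), 69.6% (67.7 to 71.4) and 64.2% (61.9 to 66.5), against 0.210%, 1.43% and 0.601% of rods. The share of thinned MG with 3 or more Aqp4 UMIs was 19.0%, 16.5% and 15.0%, and no cell had more than 9. Aqp4 was thus spread over most MG in each library rather than held by a few.

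Kcnj10 was found in 71.5%, 71.2% and 72.4% of MG against 0.424%, 0.540% and 0.536% of rods, and after thinning in 20.9% (17.5 to 24.6), 16.7% (15.3 to 18.2) and 15.3% (13.7 to 17.1). Rods gave 0.314%, 0.615% and 0.300% after thinning. The unthinned shares were level although the rd10 cells were deeper, and at equal depth the WT share was the highest, with an interval that overlapped that of rd10-vehicle but not that of rd10-TMB. Of thinned MG with Kcnj10, 71.8%, 73.2% and 72.8% also held Aqp4, against 70.8%, 69.6% and 64.2% of all thinned MG. In astrocytes an unthinned Kcnj10 UMI was found in 25.0%, 20.5% and 15.2% of cells. Dag1 was found in 46.8%, 54.2% and 52.0% of MG and 2.54%, 1.98% and 3.08% of rods and, after thinning, in 11.6%, 9.98% and 8.74%, with rods at 1.68%, 0.615% and 1.05%. In astrocytes Dag1 was found in 90% (18 of 20 cells in WT), 86.4% and 84.8%, and after thinning in 4, 10 and 8 cells.

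Atp1b2 was found in 82.5%, 93.7% and 90.4% of MG and 42.5%, 44.4% and 50.5% of rods, and after thinning in 29.98% (26.1 to 34.1), 37.0% (35.1 to 38.9) and 34.5% (32.2 to 36.7). Thinned rods gave 32.4%, 35.2% and 36.0%, with intervals that overlapped those of MG in each library. The WT share of MG lay below the rd10-vehicle share, in the same order as the CPM.

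**Figure D3:**
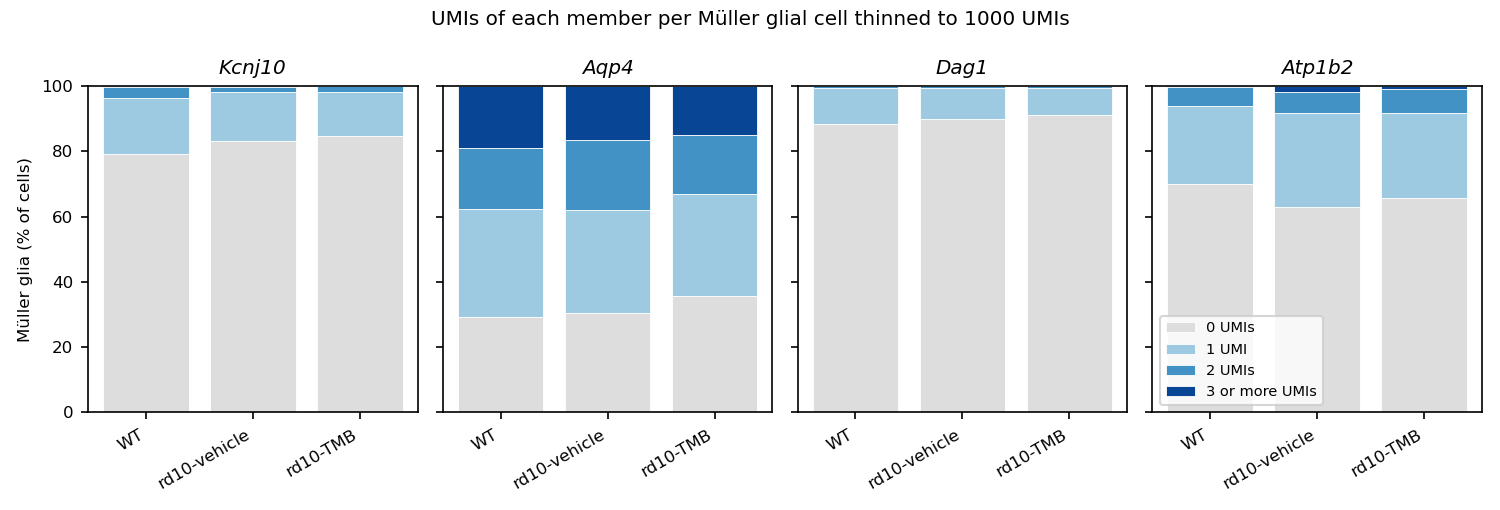
Share of Müller glia (% of cells) with 0, 1, 2 or 3 or more UMIs of each member after thinning every cell to 1000 UMIs, by library. Aqp4 is found in 64.2% to 70.8% of cells, and Atp1b2 in fewer WT cells (29.98%) than rd10-vehicle cells (37.0%).

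MG of a degenerating retina become reactive, and Lcn2 (lipocalin-2) and Gfap (an intermediate filament protein) are markers of that state. In thinned cells of rd10-vehicle, 296 MG held an Lcn2 UMI and 2180 did not, and in rd10-TMB 119 did and 1608 did not, while WT had 4 such cells and gave no comparison. Kcnj10 read 125 CPM in rd10-vehicle cells with Lcn2 and 196 CPM in those without, a log2 ratio of -0.61 (-1.17 to -0.16). In rd10-TMB it read 84.0 and 179 CPM (-0.96, -2.17 to -0.19). Aqp4 read 834 and 1405 CPM in rd10-vehicle (-0.75, -0.95 to -0.56). In rd10-TMB it read 672 and 1234 CPM (-0.86, -1.22 to -0.55). Both channels were thus lower in cells with Lcn2 in each rd10 library, beyond counting error.

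Atp1b2 differed little by Lcn2, at -0.09 (-0.37 to 0.16) in rd10-vehicle and -0.01 (-0.47 to 0.38) in rd10-TMB. For Dag1 the values were 0.22 (-0.37 to 0.70) and -0.54 (-2.06 to 0.36), from 35 and 7 UMIs in the cells with Lcn2. Split by Gfap, Aqp4 stood at -0.33 (-0.47 to -0.19) and -0.56 (-0.84 to -0.31), and Kcnj10 at -0.43 (-0.86 to -0.07) and -0.36 (-1.13 to 0.22). Cells with Lcn2 were deeper before thinning, with medians of 10580.5 against 8427 UMIs in rd10-vehicle and 12264 against 9367.5 in rd10-TMB, and the part of depth in these values beyond the thinning was not tested.

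**Figure D4:**
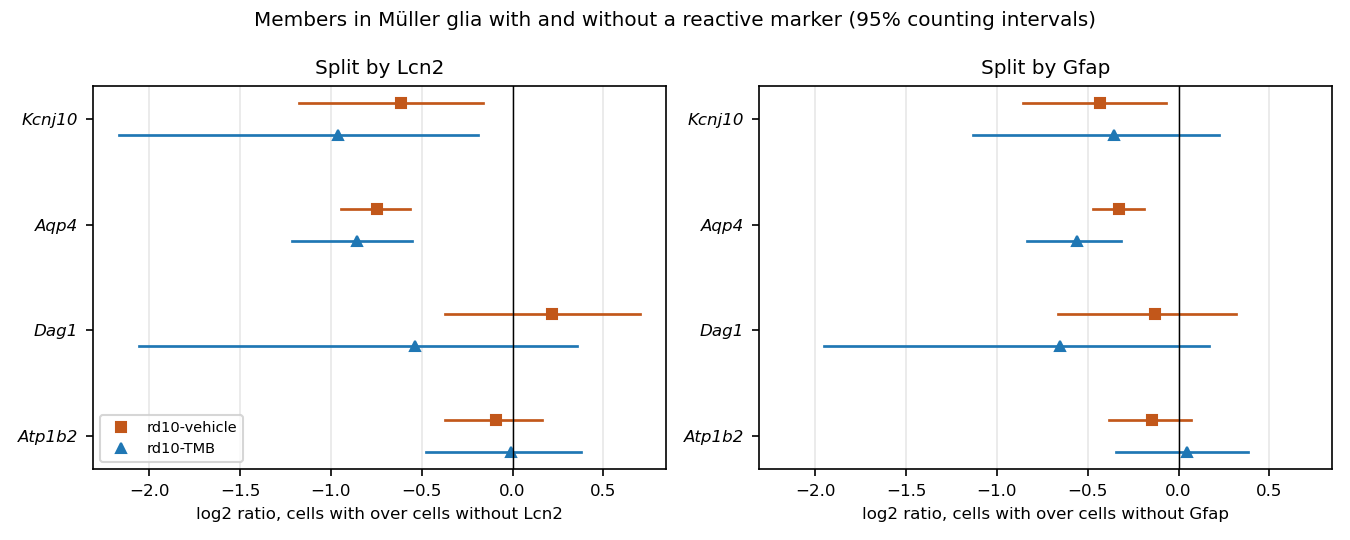
Log2 ratio of each member between thinned Müller glia with and without an Lcn2 UMI (left) or a Gfap UMI (right) in the rd10 libraries, with 95% counting intervals. Aqp4 lies below 0 in all 4 comparisons and Kcnj10 with Lcn2 in both libraries, while the intervals of Dag1 and Atp1b2 include 0.

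The partners of the members were followed through 87 listed genes of potassium channels, water and volume genes, the dystrophin-dystroglycan complex, the enzymes that glycosylate dystroglycan, its ligands, the Na,K-ATPase and other ion carriers. Between MG and astrocytes 41 of them had enough UMIs, and 11 were at least 1.5-fold higher in MG in all 3 libraries and 8 higher in astrocytes, where 14.0% and 7.07% of all genes tested were. The median log2 ratio was 0.09, against 0.12 for all genes. Glul and Car14, counted among those higher in MG, were also markers used to name the MG cluster. Without the WT library, with its 20 astrocytes, 61 listed genes had enough UMIs, and 15 were higher in MG and 14 in astrocytes, where 17.6% and 9.75% of all genes tested were.

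Among channels, Kcnk1 (the two-pore-domain potassium channel TWIK-1) was higher in MG, at 282, 263 and 256 CPM against 80.2, 68.9 and 71.0 in astrocytes. Kcnj16, whose product Kir5.1 can join Kir4.1 in a mixed channel, had no UMI in MG in any library, which over the summed MG allows up to 0.0709 CPM. Of the 16 Kcnj16 UMIs in all cells, 15 were in astrocytes. Kcnj2 (Kir2.1) had 1 UMI in all MG. A Kir5.1 transcript was thus not detectable in MG at this depth.

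Among water and volume genes, Mlc1, which encodes a membrane protein of glial endfeet, was higher in astrocytes, at 855, 733 and 673 CPM against 376, 356 and 343 in MG. Gja1 (connexin 43, the gap junction protein of astrocytes) had 59, 235 and 92 UMIs in astrocytes and 0, 7 and 1 in the far larger MG sums. These genes were higher in the glia that held almost no Aqp4.

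Of the dystrophin complex, which holds dystroglycan on the inside, Dtna (alpha-dystrobrevin) was higher in MG, with a median log2 ratio of 1.43. Sgce (epsilon-sarcoglycan) was higher in astrocytes (-1.02), in the same direction as Dag1. Agrn (agrin), a ligand of dystroglycan, was also higher in astrocytes, at 151, 90.2 and 103 CPM against 32.8, 30.6 and 31.1 in MG. Of the 12 glycosylation enzymes 5 had enough UMIs in every library, and none of the 5 was 1.5-fold apart in all libraries.

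The other beta subunits of the pump were split between the glia. Atp1b3 (beta-3) was higher in MG, at 455, 449 and 451 CPM against 86.4, 117 and 114 in astrocytes. Atp1b1 (beta-1) was higher in astrocytes, at 222, 73.9 and 137 CPM against 7.53, 3.51 and 3.28. Atp1b2 itself differed by less than 1.5-fold in all 3 libraries.

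Of the 12 ion and bicarbonate genes with enough UMIs, 6 were higher in MG and 2 in astrocytes, beside 14.0% and 7.07% of all genes. Those higher in MG were led by the carbonic anhydrases Car2 (median log2 ratio 4.63) and Car14 (3.71). Car14 and Glul, among the 6, were also markers used to name MG. Those higher in astrocytes were Slc4a4 (a sodium bicarbonate cotransporter, -5.88) and Slc12a7 (a potassium chloride cotransporter, -2.51).

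**Figure D5:**
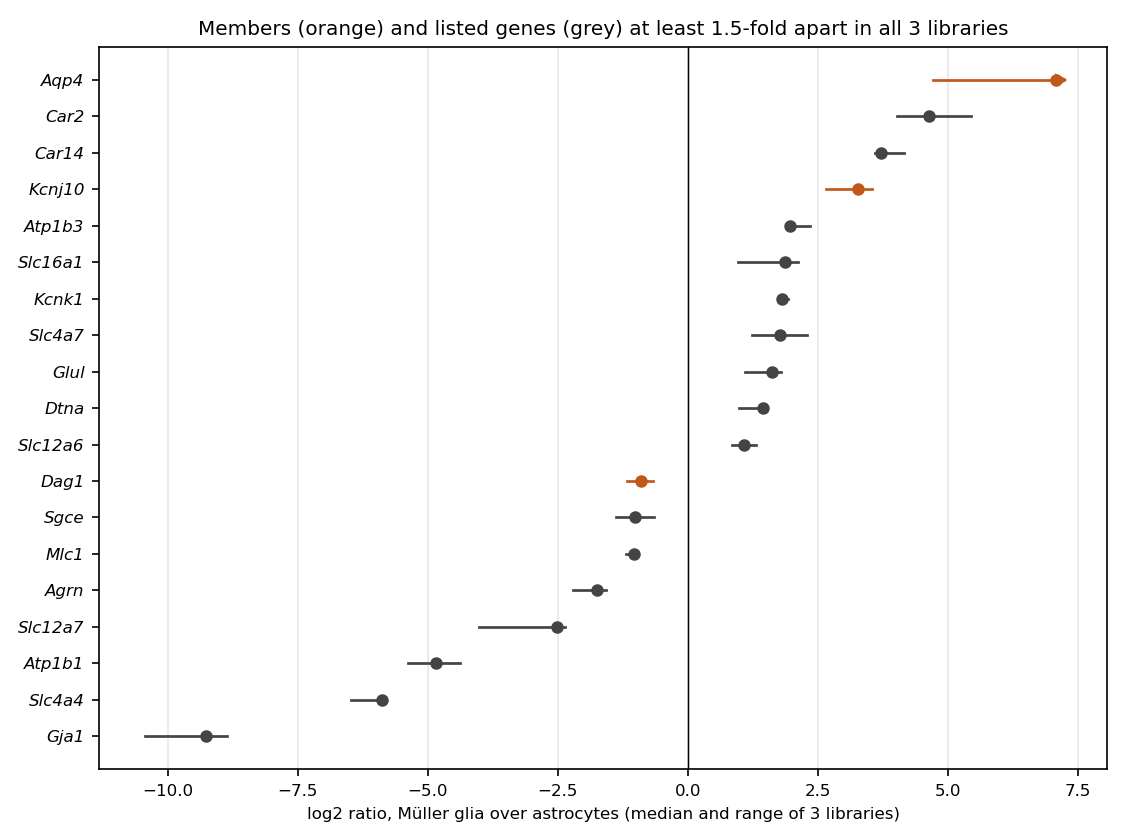
Log2 ratio of Müller glia over astrocytes for the members (orange) and the listed genes reported here (grey) at least 1.5-fold apart in the same direction in all 3 libraries, with the median (point) and range (line). The triangle for Aqp4 is a lower bound in WT at 7.17, with the count of 0 set at 3 counts. For Gja1, with 0 UMIs in WT Müller glia, the plotted value depends on the added count. Aqp4 lies at the top and Gja1 at the bottom.

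In MG, 63 of the listed genes could be compared between rd10-vehicle and WT, and 2 were at least 1.5-fold higher and 10 lower, beside 8.64% and 9.31% of all genes, with a median log2 ratio of -0.17 against -0.06 for all genes. The dystroglycan ligands Hspg2 (perlecan, 1.02) and Egflam (pikachurin, 0.95) were higher, from 10 and 7 UMIs in WT. Egflam read 82.3 to 101 CPM in rods and 99.4 to 103 CPM in cones, and summed cone markers in MG went from 94.3 CPM in WT to 202 in rd10-vehicle and rod markers from 869 to 1171 CPM. Their part in the Egflam value was not tested. Among ligands, Lama2 (-1.19), a laminin chain, was lower, from 14 UMIs in WT. Of the pump genes, Fxyd6 (-0.74) was lower, from 1743 UMIs in WT. Atp1b1 stood at -1.14 from 25 UMIs in WT, at 7.53 and 3.51 CPM. Its highest level was in amacrine cells of cluster 5, at a mean of 822 CPM, and that cluster held 461 cells in WT and 43 in rd10-vehicle. Summed amacrine markers in MG went from 789 to 601 CPM, and their part in the Atp1b1 value was not tested. Car14 stood at -0.84 (-0.89 to -0.78) and Slc16a1, a monocarboxylate carrier, at -0.78 (-0.89 to -0.67). Kcnj13 (-1.09), Aqp9 (-0.82) and Hepacam (-0.81) were lower, each from under 50 UMIs in WT. All 10 members of the dystrophin complex with enough UMIs and all 12 glycosylation enzymes stayed within 1.5-fold, among them Dmd (dystrophin) at -0.19 (-0.38 to 0.01).

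Between rd10-TMB and rd10-vehicle, 1 of 67 listed genes was at least 1.5-fold higher in MG and 0 were lower, beside 1.10% and 2.20% of all genes. It was Slit2, at 39 against 30 UMIs. In astrocytes 0 of 29 were higher and 8 lower in rd10-vehicle than in WT, beside 7.93% and 13.9% of all genes, with Atp1b1 (-1.59), Slc12a7 (-1.59) and Fxyd6 (-1.21) lowest. Summed amacrine markers read 145, 119 and 94.1 CPM in the astrocytes of the 3 libraries, and their part in the Atp1b1 values was not tested. For rd10-TMB over rd10-vehicle 3 of 33 were higher and 3 lower, beside 4.21% and 6.91% of all genes. Atp1b1 was among the 3 higher (0.89), and Car2 (-1.29), Slc16a1 (-1.22) and Utrn (utrophin, -1.001) were lower. The Car2 value rests on the 4 rd10-vehicle cells with most Aqp4, which held 80 of its 121 UMIs. The other 84 cells read 31.6 CPM of Car2, against 33.7 CPM in rd10-TMB. For Slc16a1 those 84 cells read 66.3 CPM against 28.4, and for Utrn 44.7 against 21.3 CPM. Slc16a1 was highest in endothelial cells, at a mean of 542 CPM, and Utrn in pericytes and endothelial cells, at 710.2 and 630.2 CPM. Summed endothelial markers in cluster 12 read 197 CPM in rd10-vehicle and 35.5 in rd10-TMB and pericyte markers 1836 and 1642 CPM, and their part in both values was not tested.

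By Pearson's r of log2(CPM + 1) over 47 sums of cells from 18 clusters, the genes most like Kcnj10 were Cyp4f14 (0.81), 1700063D05Rik (0.80) and Cxcl16 (0.80). Those most like Aqp4 were BC055402 (0.83), Sbspon (0.82) and Gna14 (0.82). Dag1 was closest to Gprc5c (0.94), Rcn3 (0.92) and Lamb2 (0.92), the last a laminin chain. Atp1b2 was closest to Hist3h2a (0.84), Snhg20 (0.82) and Map7 (0.82). No gene was shared between these lists. The sums share libraries and depth, and the correlations are descriptions.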

How the data were processed

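Per the labels, retinas were dissociated with papain and loaded on a droplet system with version 3 chemistry. The authors aligned reads to mm10 with Cell Ranger 6.0.1, took out doublets (Scrublet) and filtered cells at 500 genes in Seurat 3.2.2, as the submitters' processing notes and the study's methods give it, so no doublet caller was run here. The deposited values are on a natural log scale, the ln of 1 plus a gene's UMIs after scaling each cell to 10000. Each cell's total UMI count, library and cluster number come from the authors' deposited cell table. Values were turned back into counts with these totals, and 100% of 32620606 entries were whole within 0.001 UMI. UMIs were summed per cluster and library in Python 3.11.15 (numpy 2.4.6, pandas 2.3.3, scipy 1.17.1). Ratios are log2 of CPM with 1 UMI added per sum, with exact conditional intervals, Poisson intervals for CPM and Clopper-Pearson intervals for shares. A count of 0 was bounded by 3 counts. A gene was counted as apart at 1.5-fold with at least 50 UMIs over both sums. Cluster names required at least 3 markers at 2-fold or more over the other cells and at least 20 CPM. Cells were thinned to 1000 UMIs for shares and for the reactive split, and shallower cells were left out. Named were the 4 members, the listed genes past the fold limit and the 3 most similar genes per member among those with at least 200 UMIs, and Kcnj16, Kcnj2, Dmd, Rlbp1, Kcnj8, Kcnj14, Aqp1 and the genes of the 4 cells with most Aqp4 were named after their values were seen. Gjb6, Sgca, Atp1a4 and Atp1b4 were on the lists but had no row in the matrix used. Some listed genes enter the counts but are not reported here. The functions were tested on simulated data. The members, lists and alternatives were chosen with earlier results of these data known. The alternatives were other size factors, totals, cell filters, pseudocounts, fold limits and UMI minimums.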

Additional observations from a re-analysis of the deposited data

Results flagged for a closer look

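Aqp4 and Dag1 gave differences of opposite sign in the 2 glial clusters, beyond counting error as summed over all cells. Aqp4 stood at -0.052 on the log2 scale for rd10-vehicle over WT in MG and at or above 2.38 in astrocytes, where WT had 0 UMIs. The Aqp4 contrast is not firm, since 63 of the 68 rd10-vehicle astrocyte UMIs lay in 4 of 88 cells that also carried MG genes, and the MG value was 0.0013 as a mean over cells. Dag1 stood at -0.15 for rd10-TMB over rd10-vehicle in MG and at 0.37 (0.02 to 0.69) in astrocytes. The astrocyte value came from 115 UMIs in 33 cells and 224 UMIs in 88 cells, and its interval began near 0. Of the genes in that astrocyte comparison, 88.5% had a lower ratio. With 1 library per group, neither difference between the clusters was tested.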

How the results depend on the processing

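Of 104 values of the 12 member ratios under 10 alternatives, 92 stayed within the counting interval. The log2 ratio of Aqp4 in MG between rd10-vehicle and WT turned from -0.05 to 0.0013 as a mean over cells and was -0.18 with WT cells limited by Xist and Y-linked UMIs, under which Atp1b2 was 0.25 against 0.39. Between rd10-TMB and rd10-vehicle, thinning gave -0.12 for Kcnj10 (against 0.05), -0.16 for Aqp4 and -0.11 for Atp1b2, and the mean over cells gave -0.14 for Aqp4 and -0.24 for Atp1b2. The median MG to astrocyte ratio over libraries was 1.72 for Kcnj10 and 5.29 for Aqp4 after thinning, and 1.33 and 3.69 in astrocyte cells without Rlbp1, of which WT, rd10-vehicle and rd10-TMB had 1, 11 and 5. With few astrocyte UMIs or cells left, these medians depend on the 1 UMI added per sum. The causes of the shifts under the alternatives were not tested. Taking every MG-like cluster gave the same cells.

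Counts of listed genes moved with the limits. Shares over all genes were computed only at 1.5-fold and 50 UMIs, so counts at other limits show only that movement. At 2-fold, MG held 1 higher and 5 lower for rd10-vehicle over WT and 0 higher for rd10-TMB over rd10-vehicle. Astrocytes held 0 higher and 4 lower for rd10-vehicle over WT, and 0 higher and 3 lower for rd10-TMB over rd10-vehicle. Between the glia, 6 were higher in MG and 6 in astrocytes. With at least 200 UMIs, MG held 0 higher and 5 lower for rd10-vehicle over WT and 0 higher for rd10-TMB over rd10-vehicle. Astrocytes held 2 lower for rd10-vehicle over WT and 0 higher and 0 lower for rd10-TMB over rd10-vehicle. Between the glia, 2 were lower in MG than in astrocytes. With at least 20 UMIs, astrocytes held 2 higher for rd10-vehicle over WT and 5 higher and 6 lower for rd10-TMB over rd10-vehicle, and 13 were lower in MG than in astrocytes. At the stated limit of 50 UMIs, leaving out the WT library, an alternative chosen after seeing the data, moved that last count from 8 to 14. No paired analysis was possible because each group was 1 library, and no replicate could be left out. The 20 WT astrocytes limit every WT value of that cluster.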

Other observations

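Several listed genes had their highest mean level outside the glia, among the 14 clusters compared. Kcnj8, the inward rectifier of vessel walls, was highest in pericytes (834 CPM) and then in endothelial cells (384 CPM). It was among the markers that named the pericyte cluster, so its place there was partly set by the naming. Kcnj14 was highest in rods (330 CPM), as was Dmd (1034 CPM), where dystrophin sits at the photoreceptor terminal, and cones came second for Dmd (675 CPM). Aqp1 was highest in rods (106 CPM) and Slit2 in cluster 8, the OFF cone bipolar cells (1855 CPM). Egflam, which joins dystroglycan at the photoreceptor synapse, was highest in cones (101 CPM).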
